A study of Mus musculus with 4 samples.

Results

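Adventitial fibroblasts of the mouse lung were studied as 373 cells of 25982 in all, with 93 cells from the normoxia wild-type library (NW), 112 from the normoxia FUNDC1 knockout library (NK), 97 from the HySu wild-type library (HSW) and 71 from the HySu FUNDC1 knockout library (HSK). HySu joins hypoxia with SU5416, a VEGF receptor inhibitor given here in 3 weekly doses, and is a mouse model of pulmonary hypertension; the NW and NK mice received vehicle in normoxia. All mice were aged 11 weeks, and the lung cells of 5 mice were pooled into the 1 library of each group. The series title places the FUNDC1 deficiency in the endothelium, but the labels name no Cre driver, strain or sex. With 1 library per group no replicate and no test was available, and square brackets hold 95% intervals that cover only counting error. PCR reads were collapsed to unique molecular identifiers (UMIs), and the intervals leave out the variation between mice and between captures.

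The cells were chosen by their own RNA. A cell entered when Serpinf1, Dpt, Mfap5, Cd248 and Clec3b together held at least 0.3% of its UMIs and Dcn with Col1a1 held at least 5 UMIs. Cells with at least 0.1% of UMIs from 4 leukocyte genes, with at least 5% from surfactant genes or with more than 3 UMIs of 3 endothelial genes stayed out. The lowest marker sum inside the rule was 0.307% in NW and 0.309% in NK, against 0.305% in HSW and 0.305% in HSK, and the highest sum outside it lay between 0.287% and 0.297%. From 13 to 17 cells a library had sums of 0.3% to 0.4%, so cells lay on both sides of the threshold without a gap. No doublet caller was run, and the limits on leukocyte, surfactant and endothelial genes were the only guard against mixed cells. The chosen cells held 528019 UMIs in NW and 552709 in NK, against 618720 in HSW and 464338 in HSK. Libraries shared 20 to 70 cell barcodes pair by pair, and no chosen cell carried a shared one.

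Adventitial fibroblasts lie in the outer sheath of large vessels and airways, where they make collagens, microfibrils and small proteoglycans. They also release chemokines that draw leukocytes into the cuff around a vessel, and the adventitia is a known site of remodelling in pulmonary hypertension. Alveolar fibroblasts, the other large fibroblast population of the lung, sit in the septa between air spaces and include cells that store lipid. Both kinds share the collagen programme, so they are told apart by smaller sets of genes.

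Marker genes that the rule did not use were high in the chosen cells. Pi16, a marker of fibroblasts around vessels in many organs, stood at 1655, 1766, 1112 and 1389 CPM (counts per 1e6 UMIs of the chosen cells) in NW, NK, HSW and HSK. In alveolar fibroblasts, chosen by their own rule on Npnt, Ces1d, Inmt, Tcf21 and Slc7a10, Pi16 stood between 24.4 and 44.8 CPM. Scara5, a ferritin receptor of adventitial fibroblasts, stood at 769, 498, 354 and 379 CPM in the same order, against at most 4.04 CPM in alveolar fibroblasts. Both genes separated the 2 kinds of fibroblast in every library, and no test is attached because the cells were chosen on related genes. With each cell thinned to 3207 UMIs, which left out no cell, Scara5 was seen in 61.3% [50.6, 71.2] of the cells of NW, 50% [40.4, 59.6] of NK, 50.5% [40.2, 60.8] of HSW and 47.9% [35.9, 60.1] of HSK. Among 500 leukocytes of each library thinned alike, Scara5 was seen in 0 to 0.2%, and before thinning it was seen in 64.5% of the chosen cells of NW. The median depth was 5138 UMIs for the chosen cells and 6482.5 for the leukocytes of NW. Dpp4, often named beside Pi16 as a marker of this population, was close to absent, at 11.4, 10.9, 3.23 and 30.2 CPM.

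The chosen cells were not uniform. The plot of marker UMIs by cell showed a branch with many adventitial and few alveolar marker UMIs and a second branch with the reverse. Summed over 20 adventitial markers outside the rule and 17 alveolar fibroblast markers, the alveolar sum was the larger in 33 of 93 cells in NW (35.5%) and 45 of 112 in NK (40.2%), against 33 of 97 in HSW (34.0%) and 26 of 71 in HSK (36.6%). The branches were of similar share in the 4 libraries. Across the cells of a library the 2 sums had a Spearman correlation of -0.51 in NW and -0.60 in NK, against -0.50 in HSW and -0.75 in HSK, over 93, 112, 97 and 71 cells that share a library and a fixed depth. The larger branch is called adventitial-leaning below and the rest, with more alveolar marker UMIs, alveolar-leaning. Pi16 and Npnt belong to the marker lists that made the split and Dcn to the rule, so their levels describe the branches and support nothing. Pi16 stood at 2371, 2710, 1656 and 2075 CPM in the adventitial-leaning cells and at 296, 468, 199 and 134 CPM in the alveolar-leaning cells. Npnt, a matrix protein of alveolar fibroblasts, stood at 20.2, 31.3, 7.74 and 83.3 CPM in the former and 1246, 872, 862 and 933 CPM in the latter. Dcn, the small proteoglycan used in the rule, stood at 14880, 16040, 15557 and 14564 CPM in the former and 2938, 4647, 3334 and 2292 CPM in the latter.

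**Figure D1:**
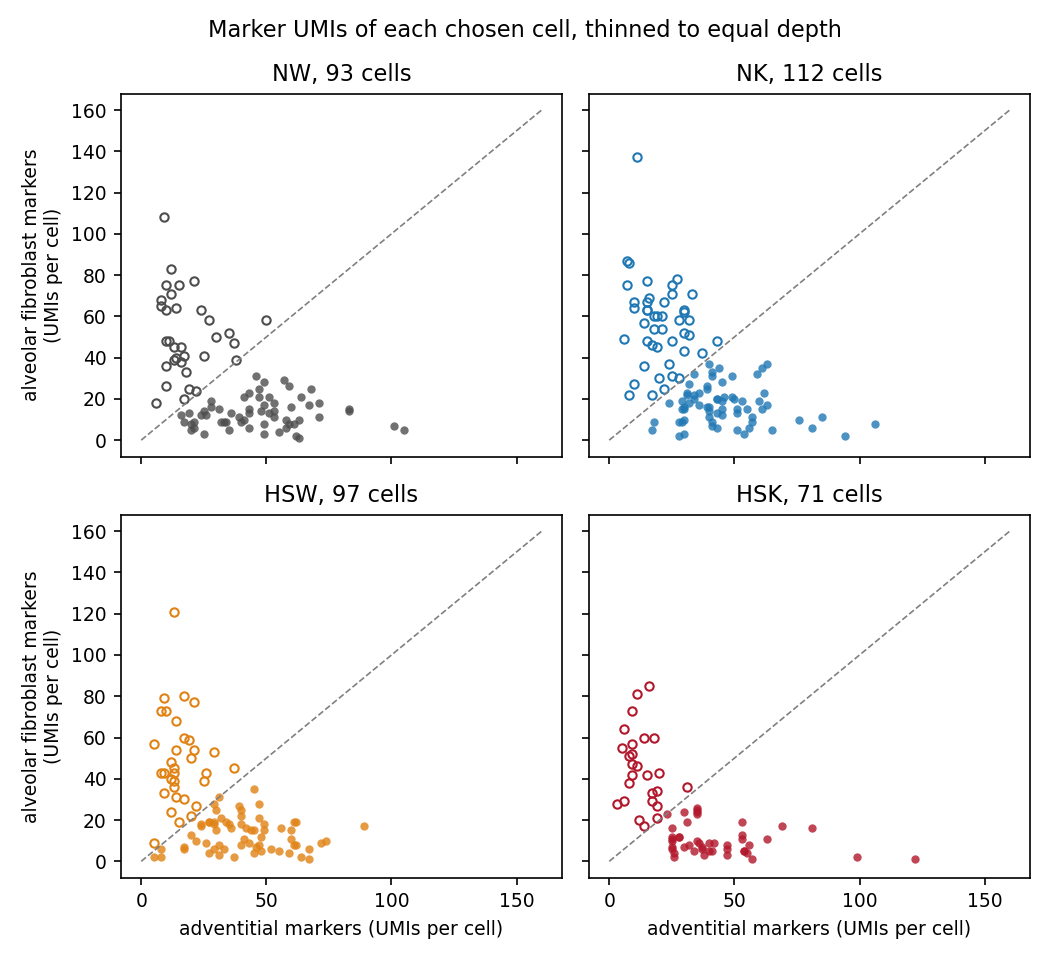
Each point is 1 chosen cell thinned to 3207 UMIs, with the UMIs of 20 adventitial markers outside the rule on the x axis and of 17 alveolar fibroblast markers on the y axis, 1 panel per library. Open circles, above the dashed line of equality, are the 33, 45, 33 and 26 cells of NW, NK, HSW and HSK whose alveolar sum is the larger.

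Set against the 373 alveolar fibroblasts of the series, 2228 genes were measured in both kinds in every library. Of these, 70 were at least 2-fold higher in the adventitial cells of all 4 libraries and 57 were at least 2-fold higher in the alveolar cells. Apart from the markers, the adventitial side held Lum, which encodes the collagen-binding proteoglycan lumican, at 407 CPM against 1.79 in NW and 254 against 13.1 in HSK. Il33, the gene of an alarmin that activates innate lymphoid cells, stood at 250 CPM against 1.79 in NW and 123 against 13.1 in HSK. Penk, which encodes proenkephalin, stood at 280 CPM against 10.8 in NW and 170 against 21.0 in HSK. On the alveolar side, Itga8, an integrin subunit of septal fibroblasts and smooth muscle, stood at 1286 CPM against 271 in the adventitial cells of NW and 1312 against 302 in HSK. These contrasts rest on 2 rules that use related genes and are a description. The alveolar group of the 4 libraries held 1, 4, 1 and 2 cells with over 2% of UMIs from the club cell genes Scgb1a1 and Scgb3a2, and the chosen adventitial cells held 1, 0, 1 and 1.

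Markers of epithelium, endothelium and leukocytes were lower than in all other cells, while smooth muscle and pericyte sums were higher. The 12 macrophage and monocyte markers summed to 1456, 1328, 1204 and 1865 CPM, against 29610 to 46521 CPM in all other cells. The 12 mesothelial markers summed to 47.3, 27.1, 46.9 and 164 CPM. In HSK all 12 UMIs of Upk3b and all 7 of Msln, 2 genes of mesothelium, came from 1 cell, and both genes were at 0 in the other libraries. The 12 smooth muscle markers summed to 767, 749, 241 and 334 CPM, against 274, 293, 221 and 222 CPM in all other cells, and Pln was at 0 in all libraries. Only 1 of the 12 stood above all other cells in every library, and alveolar fibroblasts summed to 1853, 1974, 690 and 757 CPM. The 12 pericyte markers summed to 201, 188, 213 and 218 CPM, against 25.8, 34.4, 22.8 and 21.4 CPM in all other cells, and Cox4i2, Higd1b and Rgs5 were at 0. Of these 12 markers, 5 stood above all other cells in every library, and alveolar fibroblasts summed to 242, 206, 139 and 134 CPM. The 9 endothelial markers that the rule did not use summed to between 155 and 261 CPM, against 366 to 887 CPM in all other cells. The 9 alveolar epithelial markers summed to 263, 371, 165 and 668 CPM, and in HSK 1 cell held 120 of the 129 UMIs of Ager, a gene of alveolar type 1 cells. The 8 airway epithelial markers summed to 2047, 1449, 3100 and 3706 CPM, against 21803, 22580, 64243 and 97806 CPM in all other cells, so the sums were higher under HySu in both. The part of these sums in the results below was not tested beyond the alternatives that leave cells out.

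The targeted gene, Fundc1, whose product sits on mitochondria and recruits the autophagy machinery to them, was checked first. The chosen cells held 21 UMIs of Fundc1 in NW and 0 in NK, against 27 in HSW and 1 in HSK. NK stood at 0 [0, 0.183] of NW, or 7.33-fold lower with a floor of 3 counts in place of its 0. HSK stood at 0.0494 [0.00121, 0.299] of HSW. Fundc1 RNA was thus near or at 0 in fibroblasts of the libraries labelled knockout, which are not endothelial cells, and counts of this size cannot show a low remaining level.

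Cells that met the rule took a larger share of all cells under HySu in wild type, while in knockout this depended on the limits and threshold of the rule. They made up 1.22% [0.982, 1.49] of the cells in NW and 1.22% [1.01, 1.47] in NK, against 1.92% [1.56, 2.34] in HSW and 1.72% [1.35, 2.16] in HSK. The share in HSW was 1.58 [1.18, 2.13] times that in NW, and the share in HSK was 1.41 [1.03, 1.91] times that in NK. Between genotypes the ratio was 1.01 [0.757, 1.34] for NK against NW and 0.894 [0.649, 1.23] for HSK against HSW. Both HySu intervals lay above 1 and both genotype intervals included 1. The leukocyte limit removed 29 and 50 cells of NW and NK that met the marker sum and the Dcn with Col1a1 limit, but 13 and 2 of HSW and HSK. Without that limit, an alternative chosen after seeing the data, the ratio was 1.38 [1.05, 1.80] in wild type and 1.02 [0.762, 1.35] in knockout. With the marker sum alone it was 1.37 [1.06, 1.77] and 0.916 [0.695, 1.20], so the knockout ratio turned. With all limits kept and a marker sum of at least 0.5% it was 1.49 [1.04, 2.14] and 1.37 [0.933, 1.98]. The deposited cells started at 3775, 3182, 4230 and 4726 UMIs, and with the highest of these limits applied to all libraries the HySu ratios were 1.63 and 1.96. The marker genes of the rule had HySu ratios of their own: Mfap5 of 1.46 and 2.26 and Serpinf1 of 1.30 and 1.68. Dpt, Clec3b and Cd248 had ratios below 1 in both pairs. A share cannot tell more fibroblasts from fewer cells of other kinds, or from a different yield on digestion. Nor can it tell more fibroblasts from cells that crossed the threshold by marker level.

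Under HySu, Ccl8, Mfap4, Cst3 and Igfbp7 led the genes that were higher in both genotypes, and Cd34, Ugdh and Nr4a1 were among those lower in both. A gene counted as measured in a pair with at least 50 UMIs over both libraries and as called at a 2-fold or larger ratio, with 0.5 UMI added to each count on the log2 scale. For HSW against NW, 95 of 3632 genes (2.62%) were called higher and 306 (8.43%) lower. For HSK against NK, 132 of 3366 genes (3.92%) were called higher and 413 (12.3%) lower. Of 3158 genes measured in both pairs, which share no library, 33 (1.04%) were higher in both and 96 (3.04%) were lower in both, and no gene was called in opposite directions. The 33 were 42.3% of the 78 higher genes of the wild-type pair and 26.0% of the 127 of the knockout pair, and the 96 were 38.9% of 247 and 27.4% of 351 lower genes. In the plot of the HySu ratios, genes named for both pairs lie in the upper right or lower left corner because they were chosen that way.

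**Figure D2:**
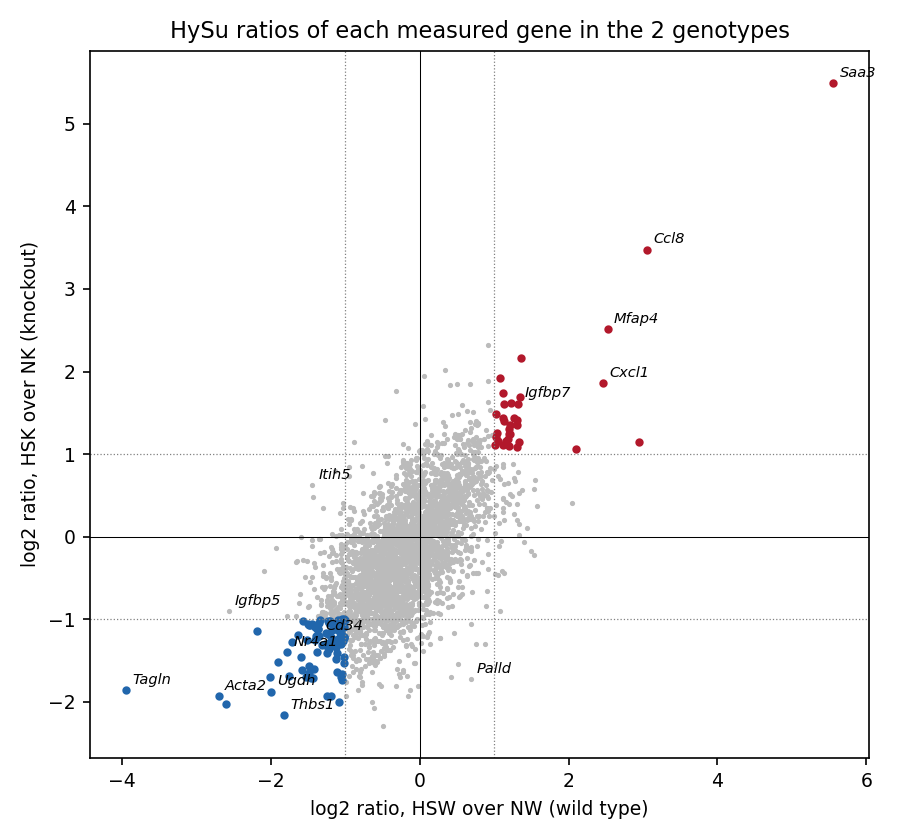
Each point is 1 of the 3158 genes measured in both HySu pairs, with the log2 ratio of HSW over NW on the x axis and of HSK over NK on the y axis. The 33 genes past the dotted 2-fold lines in the upper right and the 96 in the lower left are coloured, and Ccl8 and Mfap4 stand clear of the main cloud.

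The balance of higher against lower genes depended on scaling and moved with transcript length. The median log2 ratio over all measured genes was -0.20 in the wild-type HySu pair and -0.25 in the knockout one; with TMM scaling the medians were 0.10 and -0.01, and, since TMM moves every gene of a pair by the same amount, the counts became 247 higher and 101 lower in the wild-type pair and 275 and 198 in the knockout pair. Sorted by the longest annotated transcript, the 908 shortest of 3632 genes had a median log2 ratio of 0.21 and the 908 longest -0.47 in HSW against NW. In HSK against NK the medians of equally split groups were 0.33 and -0.62. All other cells of the libraries showed the same slope, from 0.07 to -0.45 and from 0.06 to -0.81. The genotype pairs showed little slope, from -0.08 to 0.11 for NK against NW and 0.00 at both ends for HSK against HSW. After each ratio was centred on the 200 measured genes nearest in length, 118 genes were higher and 117 lower in the wild-type pair and 153 and 130 in the knockout pair. Of the 12 genes named below as higher in both genotypes, 5 stayed past 2-fold in both after centring, and of the 12 lower genes 9 did. Those that stayed higher were Ccl8, Mfap4, Cxcl1, Cd302 and Nupr1, and those lower genes that did not stay were Ahnak, Lamc1 and Cd34, the last at -1.08 and -0.93.

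**Figure D3:**
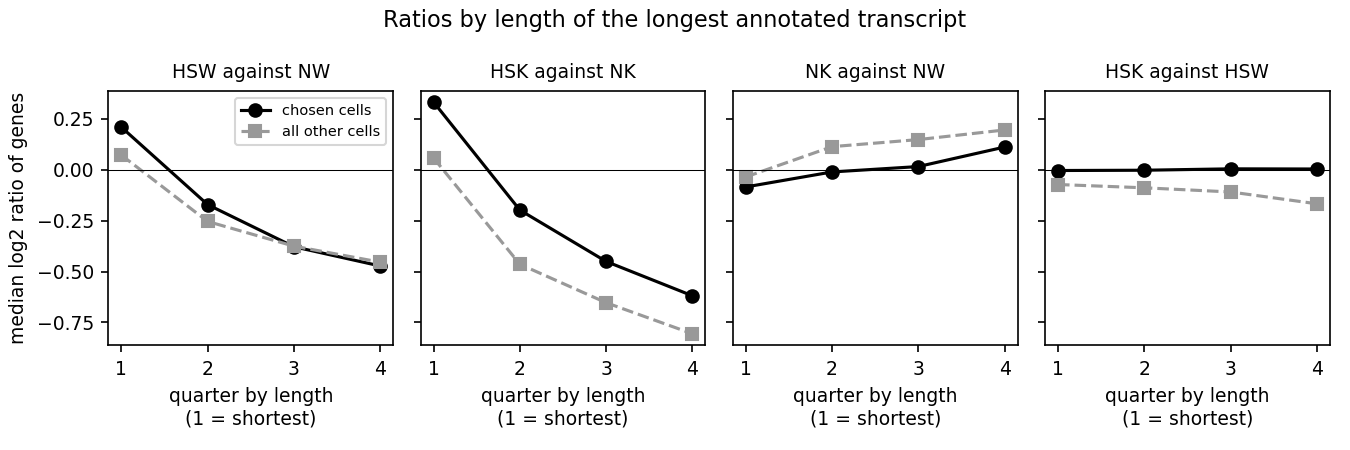
Median log2 ratio of the measured genes in 4 equal groups by length of the longest annotated transcript, shown for the 4 pairs of libraries. Black circles are the chosen cells and grey squares all other cells; both fall from short to long genes in the 2 HySu pairs, for example from 0.21 to -0.47 in the chosen cells of HSW against NW.

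Ccl8, the gene of a chemokine that attracts monocytes and lymphocytes, ranked first among the genes higher in both genotypes. It stood at 39.8 CPM [24.6, 60.8] in NW and 39.8 [24.9, 60.3] in NK, against 336 [292, 385] in HSW and 452 [393, 518] in HSK. Both HySu libraries lay far above both normoxia libraries, by 8.45-fold [5.39, 13.9] in wild type and 11.4-fold [7.31, 18.5] in knockout. The UMIs came from 10 cells in NW and 11 in NK, against 35 in HSW and 27 in HSK, so the number of cells with a UMI was higher too. In HSW 5 cells held 115 of the 208 UMIs, and in HSK 5 cells held 108 of 210. Alveolar fibroblasts held at most 4.04 CPM of Ccl8 in any library, and within the chosen cells it was concentrated in the adventitial-leaning branch, with 60.7, 56.3, 505 and 669 CPM against 0, 17.2, 52.0 and 54.9 CPM. NK against NW was 1.00 [0.525, 1.91], an interval too wide to place the normoxia libraries closer.

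Other chemokines were also higher under HySu. Cxcl1, the gene of a neutrophil chemokine, stood at 20.8, 43.4, 120 and 159 CPM in NW, NK, HSW and HSK, or 5.74-fold [3.03, 12] and 3.67-fold [2.29, 6.08] higher. Of its 74 UMIs in HSW 5 cells held 43, and of its 74 UMIs in HSK 5 cells held 51. Ccl11, the gene of eotaxin, which attracts eosinophils, stood at 269, 239, 680 and 528 CPM, or 2.53-fold [2.09, 3.08] and 2.21-fold [1.78, 2.75] higher, with length-centred log2 ratios of 0.999 and 0.68. Alveolar fibroblasts had little Ccl11, at 5.38, 4.04, 86.9 and 103 CPM, and it was higher under HySu there as well. Within the chosen cells Cxcl1 stood at 23.1, 37.5, 69.6 and 183 CPM in the adventitial-leaning branch and at 16.5, 51.5, 203 and 116 CPM in the alveolar-leaning branch, which held 47 of its 74 UMIs in HSW. In the separate alveolar fibroblasts its HySu ratio was 0.470 [0.293, 0.731] in wild type and 1.47 [0.952, 2.26] in knockout. Il33 went the other way, at 250, 239, 103 and 123 CPM, or 0.414 [0.302, 0.562] and 0.514 [0.370, 0.706] of normoxia. Of 36 listed genes of adventitial cytokines, their receptors and inflammatory signalling, which leave out Ccl8, 18 were measured in HSW against NW. Of these, 2 were called higher and 2 lower, against 2.62% and 8.43% of all genes. In HSK against NK 17 were measured, with 3 higher and 0 lower, against 3.92% and 12.3% of all genes. The median log2 ratios of the listed genes, -0.46 and -0.11, lay below and above the medians of all genes.

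The promoters of Ccl8 and Cxcl1 are shown because both chemokines were higher in both genotypes and in neither did 1 cell hold most of the UMIs. Each sequence runs 5′ to 3′ along the gene from 250 bases before its start to 50 bases into it, from RefSeq on GRCm38.p6, with matches to the NF-kB consensus on either strand in capitals. The Ccl8 window is chr11:82114935-82115234 on the plus strand and the Cxcl1 window is chr5:90890995-90891294 on the plus strand.
Ccl8: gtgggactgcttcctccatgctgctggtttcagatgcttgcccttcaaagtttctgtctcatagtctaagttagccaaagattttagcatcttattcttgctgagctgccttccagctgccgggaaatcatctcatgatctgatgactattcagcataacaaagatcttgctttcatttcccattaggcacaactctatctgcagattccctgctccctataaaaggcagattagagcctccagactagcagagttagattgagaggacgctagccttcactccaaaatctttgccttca
Cxcl1: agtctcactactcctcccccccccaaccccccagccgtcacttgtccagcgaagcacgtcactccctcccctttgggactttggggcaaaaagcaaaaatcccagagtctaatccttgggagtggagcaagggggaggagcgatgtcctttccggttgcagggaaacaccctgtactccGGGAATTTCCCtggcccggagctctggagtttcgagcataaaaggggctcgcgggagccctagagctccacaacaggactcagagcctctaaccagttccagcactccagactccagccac
The Cxcl1 window held 2 overlapping matches, from base 180 and base 181, and the Ccl8 window held none. Among 27025 promoters of the same length, 8.18% held a match. A match describes letters in the window and says nothing of binding in these cells.

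Matrix and secreted-protein genes led the rest of the higher group. Mfap4, which encodes a glycoprotein of elastic microfibrils, stood at 627, 621, 3616 and 3551 CPM in NW, NK, HSW and HSK. Its ratios were 5.77 [5.14, 6.49] and 5.72 [5.09, 6.45], and between genotypes they were 0.990 [0.849, 1.15] in normoxia and 0.982 [0.921, 1.05] under HySu. Mfap4 was seen in 63.4% and 60.7% of the thinned cells of NW and NK and in 93.8% and 95.8% of HSW and HSK, with 1.8% to 3.8% in leukocytes. Alveolar fibroblasts held more of it and had similar ratios, 5.19 [4.80, 5.62] and 5.72 [5.31, 6.18], so the difference was shared by the 2 kinds of fibroblast. Igfbp7, which encodes a secreted IGF-binding protein of vessel walls, stood at 2324, 2142, 5801 and 6551 CPM, or 2.50-fold [2.34, 2.67] and 3.06-fold [2.86, 3.27] higher. Cst3, the gene of the protease inhibitor cystatin C, stood at 3807, 3848, 9405 and 9816 CPM, or 2.47-fold [2.35, 2.6] and 2.55-fold [2.42, 2.69] higher. In alveolar fibroblasts Igfbp7 had ratios of 2.38 and 3.09 and Cst3 of 2.42 and 2.78, and after length centring the chosen cells stood at log2 ratios of 0.99 and 1.31 for Igfbp7 and 1.02 and 0.84 for Cst3.

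The remaining named genes that were higher included single genes of stress, antigen-presentation and detoxification function. B2m, the light chain of MHC class I, stood at 1725, 1599, 3963 and 3792 CPM, with ratios of 2.30 and 2.37. Nupr1, a stress-induced chromatin protein, stood at 350, 270, 810 and 642 CPM, with ratios of 2.31 and 2.38. Hspb1 and Cryab, both small heat shock proteins, had ratios from 2.23 to 2.47. Gstt1, a glutathione transferase, and Cd302, a C-type lectin receptor, had ratios from 2.07 to 2.71. For these 6 genes every HySu value lay above every normoxia value. Cryab overlaps Hspb2 on the opposite strand and the strand setting of the counting is not given in the sources used here, so reads of the pair may be mixed. B2m, Hspb1, Cryab and Gstt1 came below 2-fold in both pairs once centred on length, at log2 ratios from 0.66 to 0.91. Of 20 genes listed for MHC class I, 10 and 12 were measured in the wild-type and knockout HySu pairs, and B2m alone was called. Their median log2 ratios were 0.22 and -0.11. Of 38 NRF2 and glutathione genes, 27 and 26 were measured, with 2 and 3 called higher and 0 lower. Over all genes 2.62% and 3.92% were called higher and 8.43% and 12.3% lower.

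**Figure D4:**
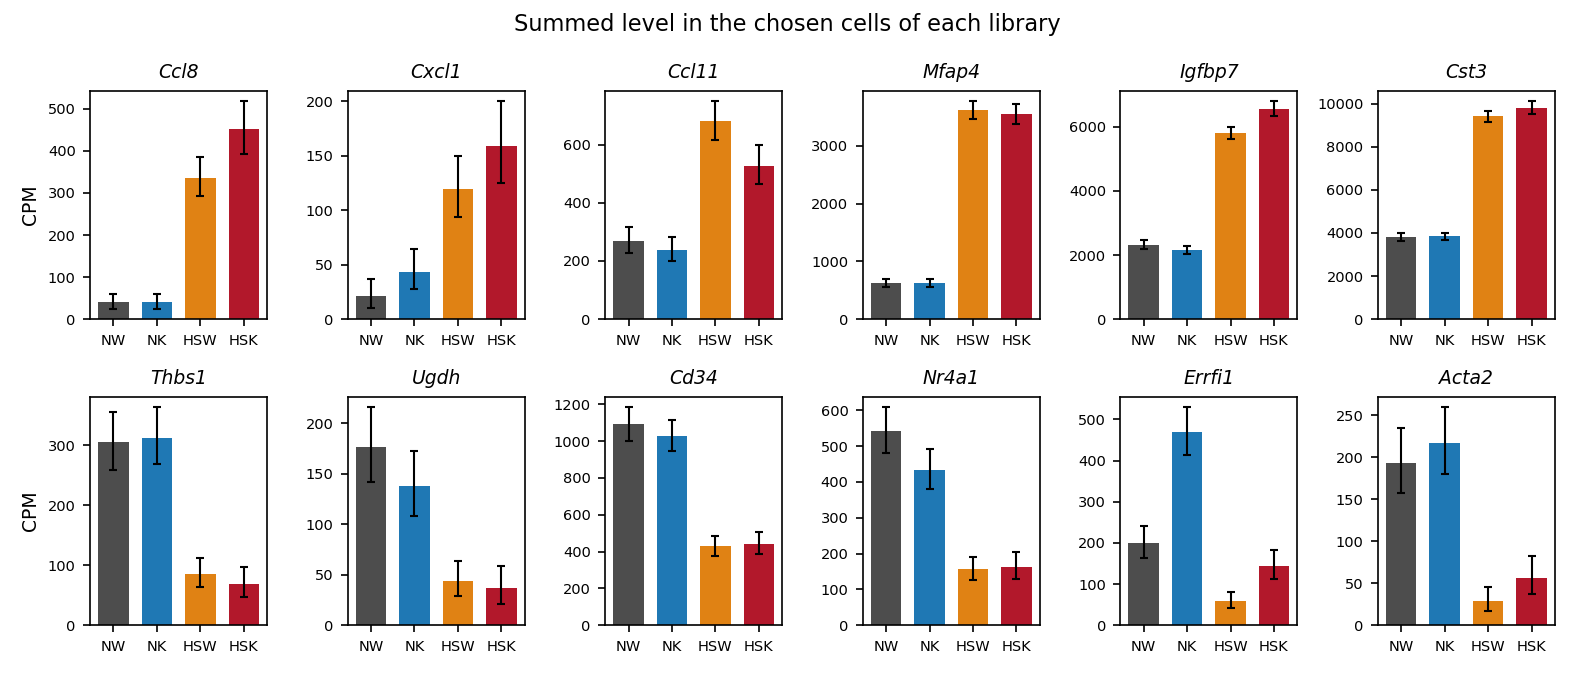
Bars give the summed level in the chosen cells of each library in CPM on linear axes that start at 0, and lines are exact Poisson 95% intervals of counting error, with 1 library per group. The upper row is higher in both HySu libraries, as for Mfap4 at 3616 and 3551 CPM against 627 and 621, and the lower row is lower in both, as for Cd34 at 428 and 444 CPM against 1091 and 1028.

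Among the genes lower under HySu, Cd34 is a surface sialomucin and a marker of adventitial fibroblasts. It stood at 1091 CPM [1004, 1184] in NW and 1028 [945, 1116] in NK, against 428 [378, 483] in HSW and 444 [385, 509] in HSK. Both HySu values lay below both normoxia values, at ratios of 0.393 [0.338, 0.455] and 0.432 [0.366, 0.507]. In alveolar fibroblasts, where the level was between 92.0 and 154 CPM, the ratios were 0.863 [0.595, 1.24] and 0.621 [0.412, 0.916]; in wild type the 2 intervals do not overlap and in knockout they do. Within adventitial-leaning cells, a split that Cd34 itself enters, the ratios were 0.383 [0.326, 0.448] and 0.418 [0.351, 0.497]. Alveolar-leaning cells had Cd34 ratios of 0.591 [0.387, 0.898] and 0.320 [0.194, 0.507], so Cd34 was lower under HySu in both branches. Ugdh, which makes the UDP-glucuronate needed for glycosaminoglycans, stood at 176, 138, 43.6 and 36.6 CPM, or 0.248 [0.155, 0.384] and 0.266 [0.147, 0.455] of normoxia. Lamc1, a laminin chain of basement membranes, had ratios of 0.435 and 0.403, which became log2 ratios of -0.70 and -0.66 once centred on length, and Cerk, which phosphorylates ceramide, 0.343 and 0.301.

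Single genes of rapid signalling responses were lower too. Nr4a1, an orphan nuclear receptor induced within minutes of stimulation, stood at 542, 432, 157 and 164 CPM, or 0.289 [0.227, 0.366] and 0.379 [0.288, 0.492]. Alveolar fibroblasts had ratios of 0.352 and 0.273 for Nr4a1, and all other cells stood at 515, 406, 208 and 101 CPM. Errfi1, a feedback inhibitor of the EGF receptor, stood at 199, 469, 58.2 and 144 CPM, or 0.293 and 0.308. Of 31 immediate-early and heat shock genes, 25 were measured in HSW against NW with 1 higher and 4 lower, and 26 in HSK against NK with 1 higher and 5 lower. Their medians of -0.23 and -0.56 compare with -0.20 and -0.25 over all genes, and the lower counts with 8.43% and 12.3% of all genes. Ahnak, Ybx3 and Tshz1 completed the named lower genes, with ratios from 0.309 to 0.479, and Ahnak came to log2 ratios of -0.54 and -0.45 once centred on length. Ahnak is a large membrane scaffold, Ybx3 an RNA-binding protein and Tshz1 a zinc finger factor.

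Thbs1, Acta2 and Tagln were lower in the chosen cells as a whole, but in both normoxia libraries most of their UMIs came from alveolar-leaning cells. Thbs1, the gene of thrombospondin 1, stood at 305, 313, 85.7 and 68.9 CPM, and Acta2, smooth muscle actin, at 193, 217, 29.1 and 56.0 CPM. Tagln, a contractile actin-binding protein, stood at 136, 81.4, 8.08 and 21.5 CPM. For the contractile pair a few cells held much of the normoxia total: of 174 UMIs of Acta2 and Tagln in NW, 117 came from 5 of 93 cells, and of 165 in NK, 95 came from 5 of 112. In adventitial-leaning cells Acta2 stood at only 17.3, 37.5, 7.74 and 49.96 CPM, and its HySu ratios were 0.446 [0.0722, 2.09] and 1.33 [0.582, 3.12]. Thbs1 in those cells stood at 28.9, 37.5, 7.74 and 13.3 CPM, from only 10, 12, 3 and 4 UMIs. Its HySu ratios there were 0.268 and 0.355, with both intervals including 1, beside 0.261 and 0.247 in alveolar-leaning cells. Counts this low cannot show whether Thbs1 differed in adventitial-leaning cells. In alveolar fibroblasts all 3 genes were higher in normoxia, with Acta2 at 440, 370, 27.2 and 65.7 CPM. Without cells that held 3 or more UMIs of mesothelial or smooth muscle markers, the log2 HSK/NK ratio of Acta2 turned to 1.18, but Acta2 and Tagln are among those markers, so the filter acts on the genes it is read for.

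Matrix genes did not move together. Of 29 collagen genes, 17 were measured in each HySu pair; none was called higher, 1 was called lower in HSW against NW and 3 in HSK against NK, close to the 8.43% and 12.3% of all genes. Col1a1, the main fibrillar chain and part of the rule, stood at 2227, 2055, 2980 and 3681 CPM, and Col3a1 at 3176, 3079, 4159 and 5052 CPM. As a description, since Col1a1 helped to choose the cells, the HySu ratios were 1.34 [1.24, 1.44] and 1.79 [1.66, 1.93] for Col1a1 and 1.31 [1.23, 1.39] and 1.64 [1.54, 1.747] for Col3a1. In alveolar fibroblasts Col1a1, part of their rule too, stood at 1110, 939, 712 and 870 CPM. Of 37 proteoglycan and matricellular genes, 27 were measured, with 0 higher and 6 lower in HSW against NW and 0 higher and 3 lower in HSK against NK; over all genes 8.43% and 12.3% were lower. Vcan, the large proteoglycan versican, stood at 265, 206, 88.9 and 101 CPM, and Tnxb, tenascin X, at 468, 479, 225 and 194 CPM. Of 19 elastic fibre genes, 15 were measured, with 2 higher and 2 lower in each pair. Over all genes 2.62% and 3.92% were higher and 8.43% and 12.3% lower. Besides Mfap4 the higher elastic fibre genes were Fbln5 in wild type, at 2.16, and Mfap5 in knockout, at 2.26. Mfap5 is one of the genes the rule used.

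Hedgehog and Wnt, complement and lipid genes were set beside all genes. In the wild-type HySu pair 2.62% of all genes were called higher and 8.43% lower, and in the knockout pair 3.92% and 12.3%. Hhip, a decoy receptor for hedgehog ligands, stood at 108, 179, 38.8 and 53.8 CPM, with ratios of 0.359 [0.213, 0.588] and 0.301 [0.186, 0.470]. Of 34 hedgehog and Wnt genes, 16 and 15 were measured in the 2 HySu pairs, with 0 higher in either and 2 and 3 lower. The lower genes were Fzd1 and Hhip in wild type and Hhip, Ptch1 and Tcf7l2 in knockout. Centred on length, the medians of the list were 0.03 and -0.02. Of 19 complement genes in the files, 11 were measured and Clu alone was called, higher in both pairs at 2.22 and 2.19; C3, the central complement component, stood at 3805, 3593, 2888 and 3125 CPM. Apoe, apolipoprotein E, stood at 1634, 1849, 3848 and 2597 CPM and passed 2-fold only in wild type, at 2.35 against 1.40 [1.29, 1.53] in knockout. Of 27 lipid genes, 10 were measured in HSW against NW with 2 higher and 1 lower, and 13 in HSK against NK with 0 higher and 5 lower, where 12.3% of all genes were lower. The lipid median in the knockout pair turned from -0.60 to 0.068 in adventitial-leaning cells.

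Mitochondrially encoded genes of oxidative phosphorylation were higher under HySu. All 6 measured of 13 had a log2 ratio above 0 in both pairs, with medians of 0.95 and 1.32; 2 were called higher in HSW against NW and 6 in HSK against NK. mt-Cytb, a subunit of complex III, stood at 1585, 1071, 4024 and 3459 CPM. The share of mitochondrial UMIs was 1.24% in NW and 0.976% in NK, against 1.90% in HSW and 1.65% in HSK, and in all other cells it was 1.83%, 1.44%, 2.49% and 2.19%, so the order of the libraries was the same. Among 74 nuclear-encoded subunits the medians were 0.15 over 73 measured genes and 0.42 over 72, with 1 and 10 called higher and 2 and 0 lower. Over all genes 2.62% and 3.92% were called higher in these pairs and 8.43% and 12.3% lower. The subunits are short, at a median longest transcript of 1141 bases in the wild-type pair, and centred on length the medians were -0.03 and 0.13.

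Cyp1b1, a cytochrome P450 induced through the aryl hydrocarbon receptor (AHR), was higher under HySu. It stood at 66.3, 59.7, 157 and 185 CPM, or 2.37-fold [1.59, 3.59] and 3.10-fold [2.05, 4.79] higher, and lay mainly in adventitial-leaning cells, at 95.4, 93.8, 227 and 240 CPM. Cyp1a1, a classical AHR target, did not reach 50 UMIs in either pair, at 1.89, 1.81, 37.2 and 28.0 CPM. All other cells held 2.15, 3.05, 189 and 130 CPM of Cyp1b1, so its normoxia level was far higher in the chosen cells than elsewhere, and under HySu the other cells came close to or above it. Of 16 AHR-related genes in the files, 4 and 6 were measured, and Cyp1b1 alone was called, while 2.62% and 3.92% of all genes were called higher. The Cyp1b1 promoter, chr17:79715012-79715311 on the minus strand, is shown with the AHR core GCGTG, searched on both strands, in capitals.
Cyp1b1: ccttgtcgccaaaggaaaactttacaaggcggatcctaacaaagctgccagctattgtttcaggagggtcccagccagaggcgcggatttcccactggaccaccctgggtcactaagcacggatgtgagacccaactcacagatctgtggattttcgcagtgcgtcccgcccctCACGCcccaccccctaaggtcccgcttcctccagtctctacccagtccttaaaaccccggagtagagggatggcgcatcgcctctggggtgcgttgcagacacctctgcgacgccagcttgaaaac
The single match starts at base 175 and reads GCGTG on the opposite strand; 32.5% of the 27025 promoters hold at least 1 match.

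Serum amyloid rested on few cells, and some other genes ranked among the first in only 1 HySu pair. Saa3, an acute-phase protein, stood at 7.58, 12.7, 401 and 612 CPM. In HSW, 226 of its 248 UMIs came from 1 cell, and in HSK all 284 came from 5 cells. Without the top cell of each library the log2 ratio of HSW over NW went from 5.56 to 2.95. Mlana, at 5.68, 14.5, 76.0 and 45.2 CPM, and Tmem98, at 15.2, 34.4, 87.3 and 58.1 CPM, were among the highest ratios of the wild-type pair. Id1 and Id2, inhibitors of helix-loop-helix factors and BMP targets, were led by different pairs: Id1 by HSW against NW at 4.37 [2.54, 8.01], with 2.10 [1.32, 3.41] in knockout, and Id2 by HSK against NK at 3.64 [2.67, 5.02], with 1.41 [1.08, 1.87] in wild type. In the knockout pair Plac8 stood 4.09-fold [3.05, 5.54] higher, while it is also a myeloid gene and in all other cells stood at 903, 484, 788 and 220 CPM. Lepr, the leptin receptor, was at 0.257 [0.154, 0.410] and Camk2n1, an inhibitor of CaM kinase II, at 0.247 [0.158, 0.373].

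Between the genotypes fewer genes were called. For NK against NW, 57 of 3781 measured genes (1.51%) were higher and 47 (1.24%) lower, with a median log2 ratio of 0.01. For HSK against HSW, 27 of 3166 (0.853%) were higher and 31 (0.979%) lower, with a median of 0.00. These pairs share libraries with the HySu pairs, so values are given side by side. Most called genes lay near the 50 UMI minimum: at a minimum of 100 UMIs the counts were 7 and 5 for NK against NW and 12 and 4 for HSK against HSW.

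Errfi1 and Tsc22d3 were higher in the knockout library under both treatments. Errfi1 stood at 199 CPM in NW and 469 in NK, a ratio of 2.36 [1.87, 2.99], and at 58.2 in HSW and 144 in HSK, a ratio of 2.48 [1.63, 3.83]. Tsc22d3, the glucocorticoid-induced leucine zipper, stood at 127 and 304 CPM, a ratio of 2.40 [1.79, 3.23], and at 80.8 and 196, a ratio of 2.43 [1.70, 3.50]. For both genes the knockout library was the higher one within each treatment. Alveolar fibroblasts had the same order, with Errfi1 at 169, 368, 84.2 and 205 CPM and Tsc22d3 at 255, 498, 185 and 308 CPM. In all other cells Errfi1 stood at 67.6, 125, 48.0 and 73.5 CPM, while Tsc22d3 stood at 249, 346, 138 and 127 CPM. Of 23 glucocorticoid target genes, 17 were measured in each genotype pair. For NK against NW 5 were called higher and 0 lower, against 1.51% and 1.24% of all genes. They were Cdkn1a, Errfi1, Gadd45g, Per1 and Tsc22d3. For HSK against HSW 3 were called higher and 0 lower, against 0.853% and 0.979% of all genes. They were Angptl4, Errfi1 and Tsc22d3. Both counts thus repeat Errfi1 and Tsc22d3, which are given above, and are no separate support. The medians of the listed genes were 0.47 and 0.19, against 0.01 and 0.00 over all genes. Per1 and Nr1d1, clock genes, stood at 34.1 and 43.6 CPM in NW and at 76.0 and 99.5 in NK; the hour at which lungs were taken is not given in the sources used here.

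Igfbp5 ranked first among the genes lower in NK than in NW. This secreted IGF-binding protein stood at 1354 CPM [1257, 1457] in NW and 423 [371, 481] in NK, against 228 [192, 269] in HSW and 226 [185, 274] in HSK. NW was the high library and the other 3 were lower, with NK at 0.313 [0.269, 0.363] of NW and HSK at 0.992 [0.763, 1.29] of HSW. In NW, 42 of 93 cells held Igfbp5 and 1 cell held 180 of the 715 UMIs. Without the top cell of each library the log2 ratio of NK over NW was -1.93 against -1.68 with it. Few cells still carried the gene: 5 cells held 455 of the 715 UMIs in NW and 167 of 234 in NK. Adventitial-leaning cells stood at 1899, 663, 206 and 310 CPM in NW, NK, HSW and HSK. Alveolar-leaning cells stood at 318, 94.5, 264 and 73.1 CPM, with HSW at 0.829 [0.569, 1.21] of NW. Itih5, a hyaluronan-binding matrix stabiliser, was also highest in NW, at 195, 48.9, 71.1 and 75.4 CPM, with NK at 0.250 [0.158, 0.386] of NW. Denr, a translation reinitiation factor, stood at 148, 38.0, 76.0 and 68.9 CPM, and Malsu1, a mitoribosome assembly factor, at 92.8, 21.7, 97.0 and 86.1 CPM, with NK the low library in both. Aqp1, a water channel, at 26.5, 118, 56.6 and 60.3 CPM, and Smad1, a BMP signal transducer, at 28.4, 88.7, 35.6 and 51.7 CPM, had NK as the high library. The mitochondrially encoded genes were lower in NK than in NW, with a median log2 ratio of -0.56 and 6 of 6 measured genes below 0 but none past 2-fold.

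**Figure D5:**
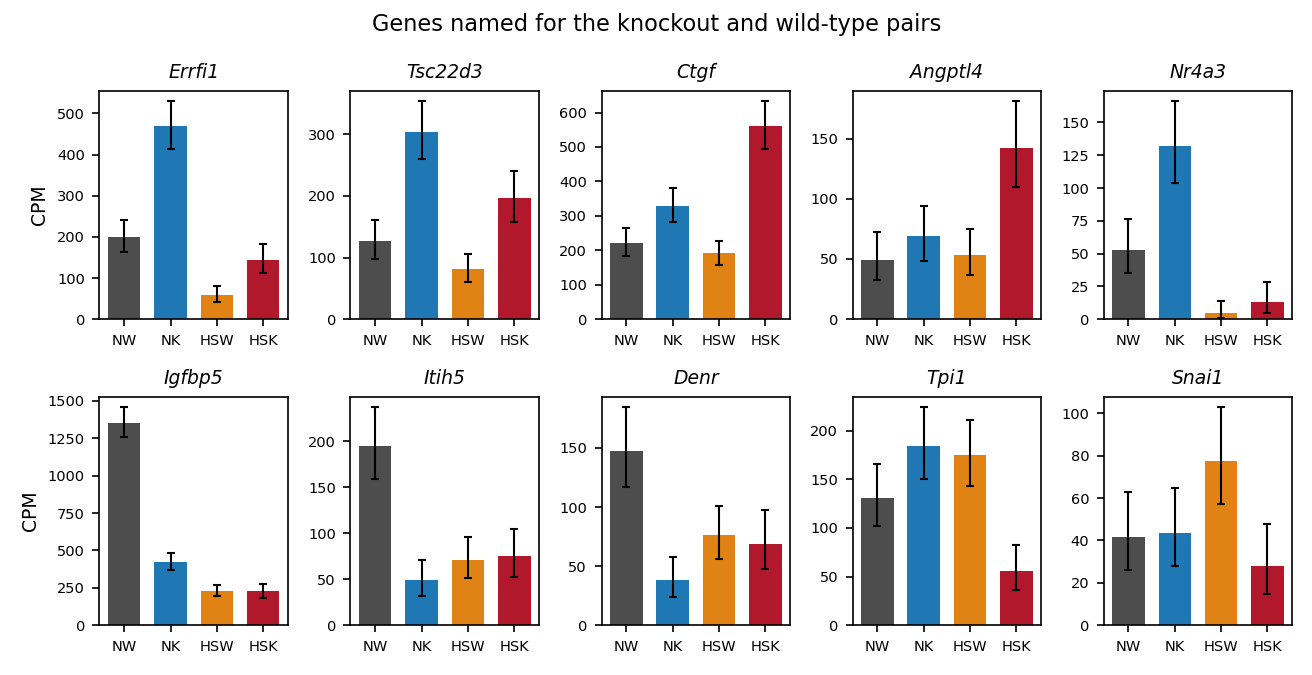
Bars give the summed level in the chosen cells of each library in CPM on linear axes that start at 0, with exact Poisson 95% intervals of counting error and 1 library per group. Errfi1 and Tsc22d3 are higher in the knockout library of each treatment, Igfbp5 is high in NW at 1354 CPM and 226 to 423 in the others, and Tpi1 and Snai1 are lowest in HSK.

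Under HySu the gene that ranked first as higher in the knockout library was Ctgf, the gene of a matricellular protein induced by TGF-beta and YAP. Ctgf stood at 222, 329, 191 and 560 CPM, with HSK at 2.94 [2.35, 3.68] times HSW and NK at 1.49 [1.172, 1.89] times NW. In HSK, 33 of 71 cells held it and 5 cells held 153 of its 260 UMIs, and in alveolar fibroblasts it stood at 303, 341, 136 and 221 CPM. Angptl4, a lipase inhibitor, stood at 49.2, 68.8, 53.3 and 142 CPM, with HSK at 2.66 [1.73, 4.18] times HSW. On the lower side, Tpi1, a glycolytic enzyme, stood at 131, 185, 175 and 56.0 CPM, with HSK at 0.321 [0.201, 0.496] of HSW, while alveolar fibroblasts stood at 135, 108, 92.4 and 168 CPM. Snai1, a transcription factor of mesenchymal cells, stood at 41.7, 43.4, 77.6 and 28.0 CPM, with HSK at 0.361 [0.179, 0.677]. Hoxb5 and Spats2l were at 0.354 [0.176, 0.662] and 0.348 [0.168, 0.667]. Of 37 hypoxia and glycolysis genes, 36 were in the files and 19 were measured, with Vegfa higher and Tpi1 lower and a median log2 ratio of 0.26. Over all genes 0.853% were called higher and 0.979% lower for HSK against HSW.

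The HySu ratios differed between genotypes for some genes by intervals that do not overlap. Palld, an actin-bundling protein, stood at 73.9, 174, 120 and 51.7 CPM, with a HySu ratio of 1.62 [1.08, 2.45] in wild type and 0.298 [0.182, 0.469] in knockout. Itih5 had ratios of 0.365 [0.250, 0.524] and 1.54 [0.907, 2.65], and Malsu1 1.04 [0.705, 1.56] and 3.97 [2.04, 8.31]. For Malsu1 and Itih5 the normoxia libraries differed more than the HySu libraries did. Tmem100, an endothelial and fibroblast membrane protein, stood at 136, 74.2, 50.1 and 103 CPM, and March5, a mitochondrial ubiquitin ligase, at 66.3, 32.6, 35.6 and 73.2 CPM. These levels rest on 15 to 48 cells a library for Palld and 15 to 23 for March5, and the difference between the genotypes has no replicate.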

How the data were processed

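Per the labels' protocols, cell suspensions came from enzyme digestion of fresh lung followed by red cell lysis, with capture on GEXSCOPE microwell chips and polyA priming. The submitters' processing notes name cutadapt 1.17, STAR 2.6.1a, featureCounts 2.0.1, Scanpy, GRCm38 and mm10, with no order or role. The deposited values are raw UMI counts per gene and cell, 1 matrix per library, not normalized, and the strand setting of the counting is not given in the sources used here.

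The chosen cells of a library were summed, and levels are counts per 1e6 UMIs of that sum (CPM), with exact Poisson intervals. Ratios carry exact conditional binomial (Clopper-Pearson) intervals and shares exact Clopper-Pearson intervals, all at 95% and for counting error only. A fold against a library with 0 counts used a floor of 3 counts. The edgeR quasi-likelihood test was not run, since 1 library per group leaves no residual degrees of freedom. No doublet caller was run. A gene could be named in a pair when it was called, its interval excluded 1, at least 5 chosen cells of the higher library held a UMI with at most 50% in 1 cell, and its level there was at least that of all other cells. The rule took the first 12 each way called in both HySu pairs and the first 8 each way per pair, ranked by the bound nearest to no difference. It also took the 5 each way with the largest genotype difference among HySu ratios whose intervals do not overlap, and members of 42 lists. Rule genes, mitochondrial and ribosomal genes were not ranked. Cyp1b1, Cyp1a1, Dpp4, Apoe and genes that describe the cells were picked after their values were seen. The members, lists and named genes were chosen with earlier results of these data known. Promoters came from RefSeq on GRCm38.p6; Ccl11 and Tagln have no entry. Alternatives were other UMI minima, TMM scaling, totals without mitochondrial, ribosomal and haemoglobin genes, thinning, means over cells, other cell limits and leaving out the top cell; those on transcript length, secretoglobin, marker balance and dropping the leukocyte or all limits were chosen after seeing the data. The counting was tested on simulated data. Python 3.11.15, numpy 2.4.6, scipy 1.17.1, pandas 2.3.3, matplotlib 3.10.9, R 4.3.3 and edgeR 4.0.16 (TMM factors only) were used.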

Additional observations from a re-analysis of the deposited data

Results flagged for a closer look

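6 named genes had HySu ratios of opposite sign in the 2 genotypes, with each interval excluding a ratio of 1. Palld, Iyd, Mpp6 and March5 were named for the size of that genotype difference, and Asap1 and Denr for a genotype pair. Opposite signs are thus partly built into the choice and support nothing. Only named genes were searched, not all 3158 genes measured in both HySu pairs. The difference between the genotypes was not tested, since each group is 1 library. The log2 HySu ratio of Palld was 0.69 in wild type and -1.73 in knockout. The log2 HySu ratio of Asap1, an Arf GTPase-activating protein, was 0.69 and -1.06. For Iyd, an iodotyrosine deiodinase, it was 0.88 and -1.30, and for Mpp6, a membrane-associated guanylate kinase, 1.08 and -0.90. Denr and March5 went the other way, at -0.95 and 0.85 for Denr and -0.89 and 1.15 for March5. All 6 were low genes, with at most 174 CPM in any library.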

How the results depend on the processing

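No paired analysis was possible because each group holds 1 library, and no replicate could be left out. Counts are given as higher and lower genes, and a count is printed where it left 1.5 times its reported value. With a minimum of 30 UMIs HSW against NW had 152 and 593, HSK against NK 203 and 731, NK against NW 170 and 131, HSK against HSW 85 and 100, and both HySu pairs 172 lower. With a minimum of 100 UMIs they were 47 and 110, 83 and 142, 7 and 5, and 12 and 4 in the same order, and 22 and 40 in both HySu pairs. TMM scaling gave HSW against NW 247 and 101, HSK against NK 275 and 198, and 93 and 22 in both pairs. Thinned cells gave 49 and 140, 250 lower in HSK against NK, 31 and 12 for NK against NW, 13 and 19 for HSK against HSW, and 20 and 48 in both pairs. Centring on transcript length gave 117 lower in HSW against NW, 130 lower in HSK against NK and 23 lower in both. Totals without mitochondrial, ribosomal and haemoglobin genes gave 62 lower in both. Marker sums of at least 0.5% gave 257 lower in HSK against NK, 13 lower in HSK against HSW and 64 lower in both. Without cells carrying other mesenchymal or mesothelial markers, HSK against NK had 259 lower, HSK against HSW 14 higher, and both pairs 21 higher. Adventitial-leaning cells alone gave 202 lower in HSW against NW, 219 lower in HSK against NK, 20 lower in HSK against HSW and 49 lower in both. The share ratio of HSK against NK was 1.96 among cells of at least 4726 UMIs, 1.02 with no leukocyte limit and 0.92 with the marker sum alone. Fewer cells or genes enter under the cell limits, UMI minima and thinning; for the other settings the cause was not tested.

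Of 1607 values of gene ratios, 1461 were labelled as unchanged, 143 as moved and 3 as reversed. Of 1342 list medians, 1283 were labelled as unchanged, 53 as moved and 6 as reversed. Not every change of sign was labelled as reversed. Centred on length, the collagen median in HSW against NW went from -0.21 to 0.24 and the hedgehog and Wnt median from -0.44 to 0.03. In HSK against NK the median of the TGF-beta and BMP list went from -0.42 to 0.11. The log2 ratio of Acta2 in HSK against NK was 1.18 without cells with other mesenchymal markers and 0.40 in adventitial-leaning cells, where Tagln was 0.30. The lipid list median in HSK against NK was 0.19 at marker sums of at least 0.5%, 0.20 without those cells and 0.068 in adventitial-leaning cells, and the median of the mitochondrial dynamics list in HSW against NW was 0.35, 0.23 and 0.22. With 71 to 112 cells a library, genes under 50 UMIs a pair could not be compared.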
